A study of Homo sapiens with 16 samples.

Results

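The genes described here are the cytokines interleukin-6 (IL6), interleukin-11 (IL11), leukemia inhibitory factor (LIF) and cardiotrophin-like cytokine factor 1 (CLCF1), the receptor chains IL6R, IL6ST, LIFR and OSMR, the transcription factor STAT3 and its feedback inhibitor SOCS3. They were taken by symbol from the expression table, which held all 10 of these genes among 39007 genes. The RNA sequencing data comprised 16 libraries, with 4 libraries for each of 4 phases. The parental phase (P0) consists of T24 cells, a human bladder cancer line. The early (P3), the intermediate (P7) and the late (P15) phases belong to the GRC1 cell line, which was selected from T24 by repeated exposure to gemcitabine, a nucleoside analog that blocks DNA synthesis. All groups were grown in the same medium with serum and antibiotics, and the labels name no drug at harvest. GRC1 is 1 selected line, so the libraries of a phase share 1 selection history, and nothing states that they came from separate cultures. The p-values therefore measure only the spread between libraries.

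Cytokines of this family act through gp130, the shared receptor chain encoded by IL6ST. IL6 binds IL6R and then gp130, and IL11 binds IL11RA and then gp130, whereas LIF joins LIFR to gp130, and CLCF1 acts through CNTFR, LIFR and gp130. Oncostatin M uses OSMR or LIFR with gp130, and IL31 uses IL31RA with OSMR and no gp130. Janus kinases bound to these chains phosphorylate STAT3, which enters the nucleus and switches on target genes, and SOCS3 is induced by STAT3 and shuts the gp130 complex down. In carcinomas, these cytokines are known as secreted signals of inflammation, survival and drug tolerance.

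Of the 10 genes, IL6 and IL11 changed most at early phase P3, and their promoters are shown for that reason. RefSeq promoter windows on GRCh38.p14, from 250 bases before to 50 bases after a transcription start, were at hand for 8 of the 10 genes (11 windows), and not for LIF and CLCF1. Both windows below are written 5′ to 3′ on the strand of the gene, with the searched motifs in capitals. The IL6 window lies at chr7:22726950-22727249 on the plus strand and the IL11 window at chr19:55370414-55370713 on the minus strand.
IL6 promoter: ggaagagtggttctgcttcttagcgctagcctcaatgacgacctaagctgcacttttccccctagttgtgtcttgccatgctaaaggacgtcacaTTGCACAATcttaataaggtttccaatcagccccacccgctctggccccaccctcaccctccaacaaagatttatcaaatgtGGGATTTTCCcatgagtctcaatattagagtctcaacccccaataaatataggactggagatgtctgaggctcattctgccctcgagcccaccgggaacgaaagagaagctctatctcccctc
IL11 promoter: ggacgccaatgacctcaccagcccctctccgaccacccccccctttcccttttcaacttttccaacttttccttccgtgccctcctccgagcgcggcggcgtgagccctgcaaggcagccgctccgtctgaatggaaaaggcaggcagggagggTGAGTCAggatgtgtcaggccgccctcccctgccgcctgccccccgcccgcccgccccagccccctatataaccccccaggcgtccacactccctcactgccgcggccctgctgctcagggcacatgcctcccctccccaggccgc
The capitals in the IL6 window mark TTGCACAAT, a match to the C/EBP motif from base -155 to base -147, and GGGATTTTCC, a match to the NF-kappaB motif from base -73 to base -64, counted from a start site at 0. In the IL11 window they mark TGAGTCA, a match to the AP-1 motif from base -96 to base -90. All 5 motifs were searched on both strands, and no matches overlapped in these windows. Of 35116 promoter windows of the same length, 1.91% held the NF-kappaB motif (GGG, any 2 bases, TTTCC), 2.66% the C/EBP motif TTGCNNAAT, 7.71% the AP-1 motif TGANTCA, 1.85% the CRE motif TGACGTCA and 7.66% the STAT motif TTCNNNGAA. IL6R and OSMR held an AP-1 match just after the start, at bases 37 to 43 and 3 to 9. LIFR, with 3 windows, held 2 STAT matches and 1 C/EBP match, and the windows of IL6ST, STAT3 and SOCS3 held none of the motifs. The SOCS3 windows, chr17:78360876-78361175 and chr17:78359618-78359917 on the minus strand, did not include the start of the annotated gene at base 78360077. The bases around that start were not searched, so the presence of a STAT motif there was not tested. Likewise, the IL6 window did not include the start of the annotated gene at base 22725884. None of the 3 LIFR windows included the start of the annotated LIFR gene at base 38608354. The bases around these starts were not searched either. A match describes the letters and not a bound factor.

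The deposited values are log2 of CPM plus 1, where CPM is counts per 1 M counts of the library. From the steps between low values, library totals were put at 33.9 to 50.05 M counts, so that 1 count was worth at most 0.0295 CPM. All 10 genes passed the filter of a mean above 1 CPM, which left 13249 tested genes, and their estimated counts per library ran from 144 for IL6R in P15 replicate 3 to 73394 for LIF. Across genes, libraries of the same phase correlated with 0.9965 to 0.9984 (Pearson), and those of different phases with 0.844 to 0.986. Of 17 urothelial and epithelial markers, 8 or 9 were above 1 CPM in each phase. Their summed levels were 2207 to 2280 CPM in P0, 2432 to 2568 in P3, 1783 to 1928 in P7, then 710 to 790 in P15. From P7 to P15 these markers moved both ways. In log2 level, KRT7 went from 9.24 to 3.64, KRT8 from 9.41 to 6.155 and KRT19 from 3.735 to 0.0175. GATA3, PPARG, FOXA1 and EPCAM also fell. KRT18 instead went from 8.825 to 9.31, KRT17 from 0.155 to 4.02 and UPK1A from 0.67 to 1.57. The urothelial markers UPK1B, UPK3A and KRT20 and the epithelial CDH1 were at or near 0. The 8 fibroblast markers summed to 3.61 to 10.3 CPM in P0, P3 and P7 and to 27.1 to 30.0 CPM in P15, mostly COL1A1, with DCN and LUM at or near 0. Leukocyte markers summed to 6.55 to 8.96 CPM in P0, 2.20 to 2.55 in P3, 5.81 to 6.56 in P7, then 0.142 to 0.593 in P15. CD14 was the only one of the 8 above 1 CPM in any phase, with log2 levels of 2.96 in P0, 1.56 in P3, 2.77 in P7 but 0.08 in P15, and PTPRC and CD3E were at or near 0. Endothelial markers summed to at most 7.95 CPM, mostly CDH5 in P0. The part of these markers in the changes below was not tested, and in bulk RNA fewer cells that make a transcript and less of it per cell cannot be told apart.

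**Figure D1:**
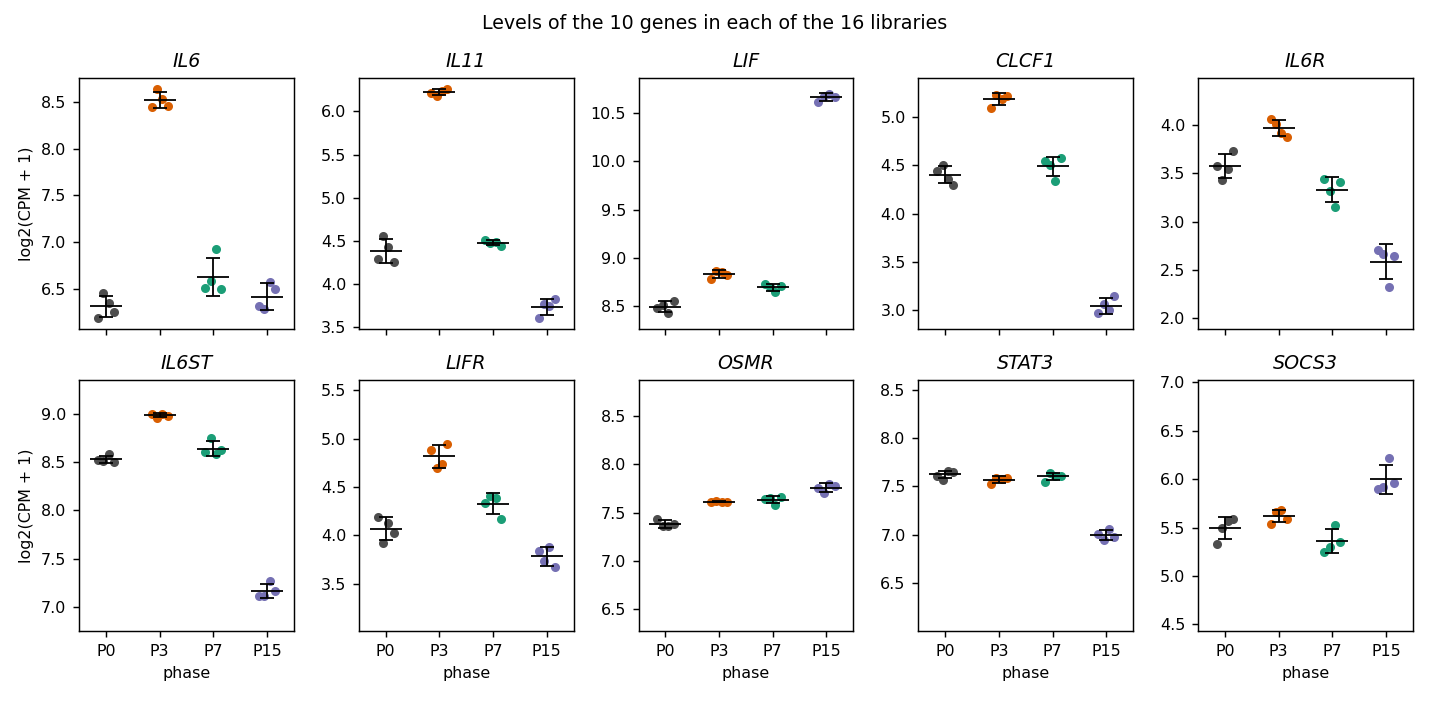
Level of each gene, log2(CPM + 1), in each library by phase. Points are the 4 libraries of a phase in replicate order, lines are the mean and SD, and each panel has its own vertical range of at least 2.6 log2 units. IL6 and IL11 stood highest at P3 (means 8.52 and 6.22), LIF at P15 (mean 10.66), and IL6ST was lowest at P15 (mean 7.17).

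IL6 (chromosome 7, 22725884 to 22732002, plus strand, GRCh38) was at 6.19, 6.45, 6.35 and 6.25 in the P0 libraries and at 8.45, 8.64, 8.53 and 8.46 in the P3 libraries (log2 level, replicates 1 to 4). It was at 6.51, 6.58, 6.93 and 6.50 in P7 and at 6.31, 6.28, 6.57 and 6.50 in P15. The P3 libraries lay above every other library, the P7 libraries lay above those of P0, and P15 overlapped both P0 and P7. On the linear scale, the mean was 78.5 ± 6.34 CPM in P0, 367 ± 22.7 in P3, 98.8 ± 14.9 in P7, then 84.6 ± 8.45 in P15 (SD, n = 4).

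IL11 (chromosome 19, 55364382 to 55370463, minus strand) was at 4.29, 4.56, 4.43 and 4.25 in P0 and at 6.21, 6.18, 6.24 and 6.26 in P3. It was at 4.51, 4.47, 4.49 and 4.44 in P7 and at 3.61, 3.77, 3.74 and 3.83 in P15. Like IL6, it was high in the P3 libraries alone, but every P15 library lay below every library of the other phases.

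LIF (chromosome 22, 30240453 to 30246759, minus strand) was at 8.48, 8.52, 8.43 and 8.56 in P0 and at 8.78, 8.87, 8.86 and 8.83 in P3. It was at 8.73, 8.70, 8.65 and 8.71 in P7 and at 10.61, 10.68, 10.70 and 10.67 in P15. No phases overlapped, and the P15 libraries stood far above the rest.

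CLCF1 (chromosome 11, 67364168 to 67374177, minus strand) was at 4.44, 4.50, 4.36 and 4.30 in P0 and at 5.09, 5.23, 5.19 and 5.22 in P3. It was at 4.54, 4.50, 4.34 and 4.57 in P7 and at 2.97, 3.06, 3.00 and 3.15 in P15. P0 and P7 overlapped, P3 lay above them and P15 below them.

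IL6ST, the gp130 chain (chromosome 5, 55935095 to 55995022, minus strand), was at 8.52, 8.51, 8.58 and 8.50 in P0 and at 9.0, 8.96, 9.0 and 8.98 in P3. It was at 8.60, 8.75, 8.58 and 8.63 in P7 and at 7.12, 7.12, 7.27 and 7.17 in P15. The P15 libraries were lowest by over 1 log2 unit. IL6R, the chain that binds IL6 (chromosome 1, 154405193 to 154469450, plus strand), ranged from 3.43 to 3.73 in P0, 3.88 to 4.06 in P3, 3.15 to 3.44 in P7, then 2.32 to 2.71 in P15. LIFR, the LIF receptor (chromosome 5, 38474668 to 38608354, minus strand), ranged from 3.92 to 4.19, 4.70 to 4.95, 4.17 to 4.41 and 3.67 to 3.88 in the same order of phases. These 2 chains were highest at P3 and lowest at P15, as gp130 was. OSMR, the oncostatin M receptor (chromosome 5, 38845858 to 38945596, plus strand), differed from them, with 7.36 to 7.44 in P0, 7.61 to 7.62 in P3, 7.58 to 7.66 in P7, then 7.70 to 7.80 in P15.

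STAT3 (chromosome 17, 42313324 to 42388540, minus strand) was at 7.61, 7.57, 7.66 and 7.65 in P0 and at 7.52, 7.59, 7.58 and 7.59 in P3. It was at 7.55, 7.64, 7.61 and 7.61 in P7 and at 7.01, 6.94, 7.06 and 6.98 in P15. The first 3 phases overlapped and P15 lay below them. SOCS3 (chromosome 17, 78356778 to 78360077, minus strand) was at 5.33, 5.49, 5.57 and 5.59 in P0 and at 5.54, 5.66, 5.68 and 5.59 in P3. It was at 5.25, 5.30, 5.53 and 5.35 in P7 and at 5.90, 5.92, 6.22 and 5.96 in P15, where all 4 libraries lay above those of the other phases.

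Early phase P3 against parental phase P0 asked what changed at the first sampled step of selection. IL6 and IL11 rose most, CLCF1, LIFR, IL6ST, IL6R, LIF and OSMR rose less, and STAT3 and SOCS3 did not pass the test. Thus 8 of the 10 genes were higher and none was lower at an adjusted p-value below 0.05 (limma, Benjamini-Hochberg over all tested genes), while 31.4% of all tested genes were higher and 37.3% lower. The median change was 0.43 on the log2 scale, against -0.03 over all tested genes. At least a 2-fold change was reached by IL6 and IL11, that is by 2 of 10, against 4.47% of all tested genes.

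IL6 was 4.63-fold higher in P3 (log2 fold change 2.21, SE 0.077, adjusted p = 1.59e-17), and IL11 was 3.58-fold higher (1.84, SE 0.060, adjusted p = 3.72e-18), on the scale of CPM plus 1, which understates the change of low genes. Both genes were singled out for the early phase in the study itself, from these same libraries, so their rise is not independent evidence. LIF and LIFR also stand among the JAK-STAT pathway genes that the study listed from these libraries. For genes of the early phase the study reports qRT-PCR as well, and its primers include IL6. CLCF1 rose by 0.78 (SE 0.062, adjusted p = 7.01e-11), and LIF, the ligand that acts through LIFR, rose by 0.34 (SE 0.032, adjusted p = 1.84e-09). Among the receptor chains, LIFR rose by 0.75 (SE 0.072, adjusted p = 2.16e-09), IL6ST by 0.46 (SE 0.037, adjusted p = 1.03e-10), IL6R by 0.40 (SE 0.087, adjusted p = 0.000333) and OSMR by 0.23 (SE 0.030, adjusted p = 3.62e-07). In these 8 genes every P3 library lay above every P0 library, which was so for 27.7% of all tested genes. The log2 fold change was 0.12 for SOCS3 (SE 0.068, adjusted p = 0.112) and -0.05 for STAT3 (SE 0.032, adjusted p = 0.152). Called lower was 1 gene under quantile normalization, STAT3 (-0.07, adjusted p = 0.0473), and with the replicate number as a block SOCS3 was called higher (adjusted p = 0.0264).

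**Figure D2:**
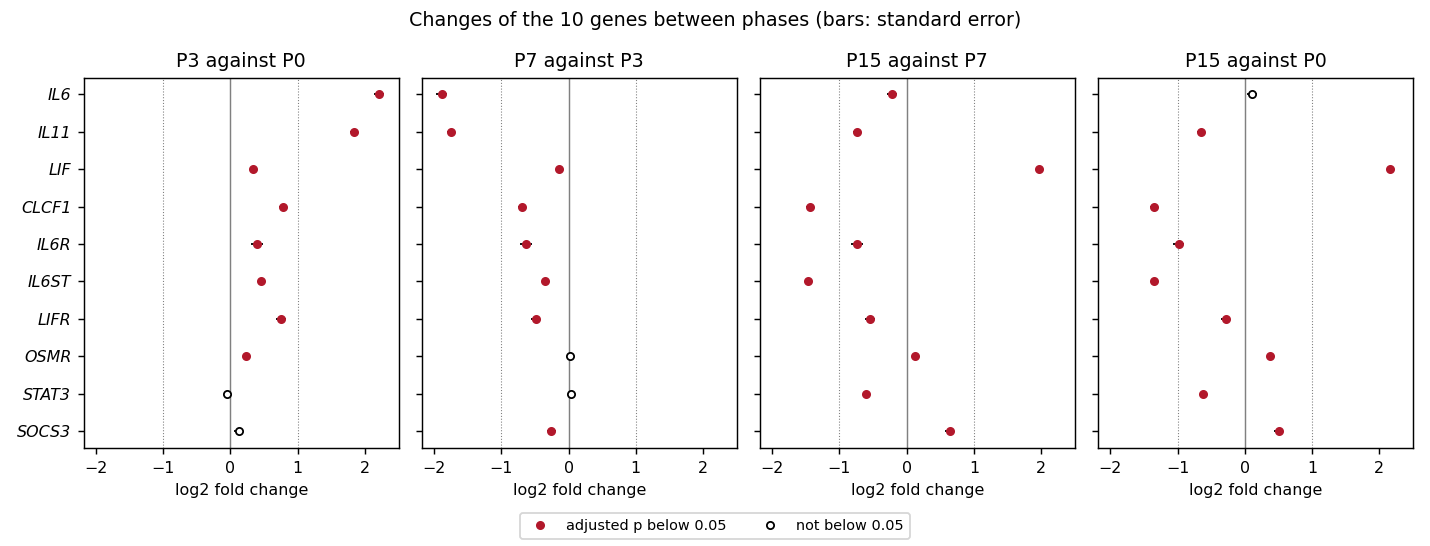
Log2 fold change of each gene in 4 comparisons of phases, with the standard error from limma as bars, which are mostly narrower than the points. Filled points have an adjusted p below 0.05 and dotted lines mark a 2-fold change. At P3 against P0, 8 filled points lay to the right of 0, at P7 against P3 8 lay to the left, and at P15 LIF lay furthest right (1.97 against P7).

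From P3 to intermediate phase P7, the genes that had stood high came down. IL6 and IL11 fell most, CLCF1, IL6R, LIFR, IL6ST, SOCS3 and LIF fell less, and OSMR and STAT3 did not pass the test. None of the 10 genes was higher and 8 were lower, against 30.3% and 28.0% of all tested genes, and the median change was -0.42, against 0.01. This comparison shares the P3 libraries with that against P0.

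IL6 fell by 1.89 on the log2 scale (SE 0.077, adjusted p = 1.1e-15) and IL11 by 1.75 (SE 0.060, adjusted p = 3.77e-17), and they were the 2 genes of the 10 with at least a 2-fold change, against 1.84% of all tested genes. CLCF1 fell by 0.70 (SE 0.062, adjusted p = 1.3e-09) and IL6R by 0.64 (SE 0.087, adjusted p = 1.25e-06). LIFR fell by 0.49, IL6ST by 0.35, SOCS3 by 0.26 and LIF by 0.14, with adjusted p-values of 3.28e-06, 2.81e-08, 0.00211 and 0.000754. In all 8 every P7 library lay below every P3 library, which was so for 25.2% of all tested genes. The log2 fold change was 0.02 for OSMR (SE 0.030, adjusted p = 0.584) and 0.03 for STAT3 (SE 0.032, adjusted p = 0.402).

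Set against P0, P7 had 5 genes higher and 1 lower, while 27.9% of all tested genes were higher and 34.2% lower. IL6 remained 0.32 above P0 (SE 0.077, adjusted p = 0.000978), LIFR 0.26 (adjusted p = 0.00305), OSMR 0.25 (adjusted p = 1.24e-07), LIF 0.20 (adjusted p = 8.36e-06) and IL6ST 0.11 (adjusted p = 0.0106). IL6R was lower, with a log2 fold change of -0.24 (SE 0.087, adjusted p = 0.019). The call of IL6R was lost without P0 replicate 4 (-0.19, adjusted p = 0.0812), without P7 replicate 3 (-0.18, adjusted p = 0.0839), under quantile normalization (-0.21, adjusted p = 0.0583) and without the filter (adjusted p = 0.0595). The call of IL6ST was lost without P7 replicate 2 (0.08, adjusted p = 0.0616) and under quantile normalization (0.07, adjusted p = 0.119). IL11 (0.10, adjusted p = 0.171), CLCF1 (0.09, adjusted p = 0.224), SOCS3 (-0.14, adjusted p = 0.0817) and STAT3 (-0.02, adjusted p = 0.608) did not pass the test. SOCS3 became lower without P0 replicate 1 (-0.19), P7 replicate 3 (-0.20) or P15 replicate 3 and with a replicate block (adjusted p = 0.0156), and IL11 became higher without P0 replicate 2 (0.15, adjusted p = 0.0205).

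Late phase P15 against P7 changed all 10 genes, in both directions. LIF rose almost 4-fold and SOCS3 and OSMR rose less, while the gp130 chain IL6ST and the ligand CLCF1 fell more than 2-fold. IL6R, IL11, STAT3, LIFR and IL6 also fell. In all, 3 genes were higher and 7 lower, where 46.3% of all tested genes were higher and 40.1% lower, so that changes as such were the rule at this step. The median change was -0.58, against 0.06 over all tested genes, and 3 of 10 genes changed at least 2-fold, against 25.5%.

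LIF was 3.91-fold higher in P15 than in P7 (log2 fold change 1.97, SE 0.032, adjusted p = 2.99e-25). SOCS3, the feedback inhibitor, rose by 0.64 (SE 0.068, adjusted p = 3.96e-09), and OSMR rose by 0.13 (SE 0.030, adjusted p = 0.000361). IL6ST fell by 1.47 (SE 0.037, adjusted p = 1.72e-21) and CLCF1 by 1.44 (SE 0.062, adjusted p = 8.49e-17). STAT3 fell by 0.61 (SE 0.032, adjusted p = 7.43e-15), IL6R and IL11 both by 0.74 (adjusted p = 2.52e-08 and 2.68e-11) and LIFR by 0.55 (adjusted p = 1.69e-07). IL6 fell by 0.22 (SE 0.077, adjusted p = 0.0128), the only one of the 10 genes whose libraries overlapped between these phases. Its call was lost without P7 replicate 3 (-0.12, adjusted p = 0.0979), without P15 replicate 2 (-0.17, adjusted p = 0.0585) and without the filter (adjusted p = 0.063). Without overlap, 3 genes were higher and 6 lower, against 43.4% and 37.4% of all tested genes.

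Over the whole course, P15 against P0, 3 genes were higher and 6 lower, against 45.3% and 40.9% of all tested genes. LIF was 4.49-fold higher (log2 fold change 2.17, SE 0.032, adjusted p = 4.47e-26), SOCS3 was 0.51 higher (adjusted p = 2.41e-07) and OSMR 0.38 higher (adjusted p = 2.1e-11). IL6ST and CLCF1 both fell by 1.36 (adjusted p = 9.37e-21 and 3.36e-16), IL6R by 0.99 (adjusted p = 1.67e-10), IL11 by 0.65 (adjusted p = 3.85e-10), STAT3 by 0.63 (adjusted p = 4.26e-15) and LIFR by 0.29 (adjusted p = 0.000784). IL6 stood at 0.11 above P0 (SE 0.077, adjusted p = 0.206). At least a 2-fold change was reached by 3 of 10 genes, LIF, IL6ST and CLCF1, against 23.6%. Against P3, P15 had 3 genes higher and 7 lower, where 46.1% and 41.1% of all tested genes were so, and IL11 (-2.49), CLCF1 (-2.14), IL6 (-2.11) and IL6ST (-1.82) fell most.

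Put in order, 6 of the 10 genes, IL6, IL11, CLCF1, IL6R, IL6ST and LIFR, were higher in P3 than in each of the other phases, and 10.3% of all tested genes were so. LIF, OSMR and SOCS3 were highest in P15, against 37.2%, and IL11, CLCF1, IL6R, IL6ST, LIFR and STAT3 were lowest there, against 32.3%. Some neighbours in the order of levels did not differ beyond their spread. These were P15 and P0 for IL6, P7 and P0 for IL11 and for CLCF1, and P7 and P3 for OSMR. They were also P0, P7 and P3 for STAT3, and P3 and P0 as well as P0 and P7 for SOCS3.

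Levels of different genes were compared per kilobase of the MANE Select transcript, the reference transcript of a gene. Among the 4 ligands, LIF held 50.9 ± 2.20% of the summed CPM per kilobase in P0, 23.8 ± 0.593% in P3, 49.6 ± 3.27% in P7, then 83.2 ± 1.08% in P15 (SD, n = 4). IL6 held 38.0 ± 1.85%, 65.7 ± 1.09%, 40.4 ± 4.08% and 14.9 ± 1.09%. The leading ligand was thus LIF in P0, P7 and P15 and IL6 in P3. This order depends on the length used, since all annotated exons of IL6 span 4321 bases and its MANE Select transcript 1127, and with all annotated exons LIF led in P3 also, with 47.2% against 34.0%. IL11 and CLCF1 each held small shares, 6.28% and 4.19% at P3 and 1.03% and 0.846% at P15. The ligand sum was 183 ± 7.47 CPM per kilobase in P0, 495 ± 23.0 in P3, 216 ± 10.0 in P7, then 504 ± 17.1 in P15. The sums of P3 and P15 thus lay within their SD of each other with the MANE Select length, but were 249 ± 8.50 and 447 ± 12.7 CPM per kilobase with all annotated exons.

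Among the 4 receptor chains, gp130 (IL6ST) led in P0, P3 and P7 with 54.9 ± 1.03%, 58.1 ± 0.372% and 53.0 ± 1.09% of their summed CPM per kilobase, and OSMR led in P15. In P15 OSMR held 68.5 ± 0.531% and IL6ST 27.8 ± 0.706%, and the same order was found with all annotated exons (68.8% and 27.1%). IL6R and LIFR were minor chains at the RNA level, each between 1.54 and 2.68% in every phase. The sum of these 4 chains was 74.3 ± 1.24 CPM per kilobase in P0, 96.4 ± 0.734 in P3, 83.3 ± 3.02 in P7, then 57.0 ± 1.79 in P15. This sum thus fell at the last step, where the ligand sum rose. It leaves out IL27RA, IL11RA and IL31RA, which were at 6.31, 3.49 and 1.52 CPM per kilobase in P7. In P15 they were at 19.07, 6.90 and 2.815.

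**Figure D3:**
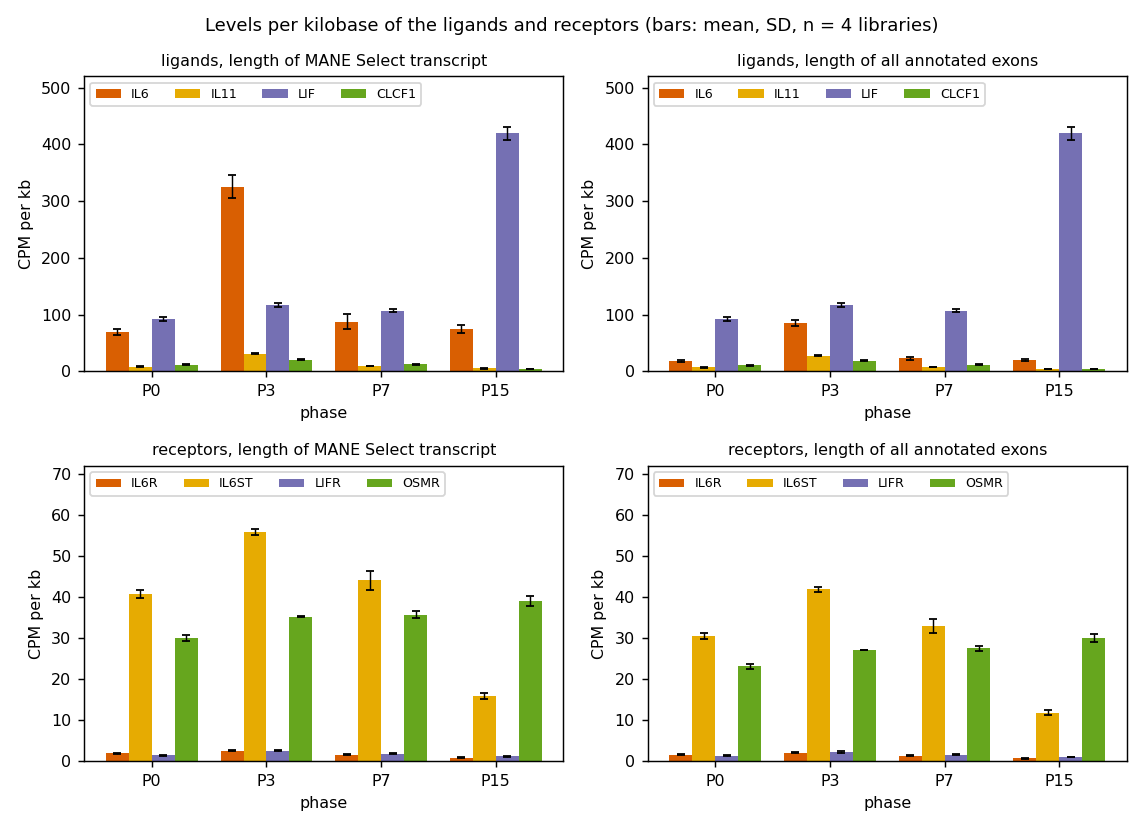
Mean level in CPM per kilobase of the ligands (top) and receptor chains (bottom) by phase, with the length of the MANE Select transcript (left) or of all annotated exons (right). Error bars are SD, n = 4 libraries. LIF at P15 (419 CPM per kilobase) exceeded all other ligand bars on both scales, IL6 led at P3 only on the left (325 CPM per kilobase), and OSMR overtook IL6ST at P15 on both.

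Differences within each library showed whether genes of the same role moved unequally (exact permutation test, two-sided, 4 libraries against 4, 8 tests). The smallest p that this design allows is 0.0286, or 0.0327 after Benjamini-Hochberg adjustment. IL6 minus IL11 was 1.93 ± 0.050 on the log2 scale in P0, 2.30 ± 0.114 in P3, 2.15 ± 0.197 in P7, then 2.68 ± 0.132 in P15 (SD, n = 4). IL6 thus rose by 0.37 more than IL11 at P3 (exact p = 0.0286, adjusted 0.0327), and the difference widened by 0.53 at P15 against P7 and by 0.75 against P0 (both exact p = 0.0286, adjusted 0.0327). From P3 to P7 the difference moved by -0.15 (exact p = 0.286).

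LIFR and OSMR are neighbours on chromosome 5, on opposite strands with 237503 bases between them. LIFR minus OSMR was -3.32 ± 0.097 in P0, -2.80 ± 0.121 in P3, -3.31 ± 0.131 in P7, then -3.98 ± 0.090 in P15. It moved by 0.52 at P3, by -0.51 at P7 against P3, by -0.67 at P15 against P7 and by -0.66 against P0 (each exact p = 0.0286, adjusted 0.0327). The 2 neighbouring genes therefore changed unequally at every step, and at P15 in opposite directions.

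Other cytokines and receptors that use gp130 or its partners were read from a list of 11 genes, of which IL31 had no row and 4 passed the filter. EBI3, a subunit of IL27 and IL35, rose at every step, with log2 levels of 1.00 ± 0.18 in P0, 1.72 ± 0.19 in P3, 2.32 ± 0.04 in P7, then 3.88 ± 0.08 in P15, and was 2.88 higher in P15 than in P0 (adjusted p = 5.89e-19). The receptor chains IL27RA, IL31RA and IL11RA were all higher in P15 than in P7, by 1.54 (adjusted p = 8.15e-18), 0.84 (adjusted p = 8.15e-11) and 0.88 (adjusted p = 3.72e-10). These 3 chains each pair with one of the chains above, IL27RA and IL11RA with gp130 and IL31RA with OSMR. At P3, IL31RA fell by 0.84 (adjusted p = 3.59e-10) and IL27RA by 0.58 (adjusted p = 6.28e-09), and IL11RA stood at 0.06 (adjusted p = 0.562). IL11RA shares 32.5% of its exon bases with another gene on the same strand, so its values are uncertain. IL31RA lies 12240 bases from IL6ST on chromosome 5, and where IL6ST rose at P3 and fell at P15, IL31RA did the reverse. Genes under the filter included OSM, with a mean of at most 0.30 in any phase and 9 of 16 libraries at 0, CTF1, at 1.36 in P0 and 0.35 to 0.45 later, and CNTF, at 0.42 to 1.02, which shares 38.5% of its exon bases with ZFP91-CNTF. IL27 and CNTFR were at 0 in 14 of 16 libraries.

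Further genes of the pathway were counted by list. Of all tested genes, 31.4% rose and 37.3% fell at P3, 30.3% rose and 28.0% fell at P7 against P3, and 46.3% rose and 40.1% fell at P15 against P7. The medians of all tested genes at these steps were -0.03, 0.01 and 0.06.

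Among 9 tested Janus kinases and other STATs, 2 rose and 5 fell at P3 (all tested genes 31.4% and 37.3%). At P7 against P3, 3 rose and 1 fell (30.3% and 28.0%). At P15 against P7, 4 rose and 4 fell, near the shares of all tested genes (46.3% and 40.1%). STAT6, the signal carrier of IL4 and IL13, fell from 7.24 ± 0.04 in P7 to 0.69 ± 0.09 in P15 (log2 fold change -6.55, SE 0.043, adjusted p = 5.79e-33). JAK3 rose from 0.04 ± 0.07 to 3.00 ± 0.05 (2.97, SE 0.091, adjusted p = 1.02e-19), and passed the filter through its P15 level alone. JAK2, one of the kinases that gp130 uses, rose by 0.32 at P3 (adjusted p = 0.00021), and TYK2 fell by 0.26 at P7 against P3 (adjusted p = 8.58e-06).

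Of 15 other inhibitors of this pathway, 3 rose and 9 fell at P3 (all tested genes 31.4% and 37.3%) with a median of -0.44 against -0.03. At P7 against P3 5 rose and 6 fell (30.3% and 28.0%), and at P15 against P7 9 rose and 5 fell (46.3% and 40.1%) with a median of 0.44 against 0.06. SOCS1 fell by 1.03 at P3 (adjusted p = 1.52e-07). SOCS2 rose by 1.72 (adjusted p = 3.46e-20) and the phosphatase gene PTPN6 fell by 2.25 (adjusted p = 7.44e-17) at P15 against P7. PIAS2, an inhibitor of activated STATs, rose by 0.42 at P3 (adjusted p = 4.5e-08), and the adaptor gene SH2B3, which restrains JAK2, rose by 0.61 at P7 against P3 (adjusted p = 2.07e-12). Of 6 adaptors that carry the signal to RAS, 2 rose and 2 fell at P3, near the shares of all tested genes (31.4% and 37.3%), and 2 rose and 3 fell at P7 against P3 (30.3% and 28.0%). None of the 6 rose and 5 fell at P15 against P7 (46.3% and 40.1%), led by GAB2 with -1.15 (adjusted p = 3.14e-16). Of 5 genes of receptor and ligand shedding, 3 fell at P3 (all tested genes 37.3%), 4 rose at P7 against P3 (30.3%), and at P15 against P7 2 rose and 3 fell (46.3% and 40.1%). ADAM17, the protease that releases soluble IL6R, rose by 0.65 there (adjusted p = 8.67e-14), and its inhibitor TIMP3 fell by 5.06 (adjusted p = 1.89e-27).

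Of 18 known STAT3 target genes, 10 rose and 6 fell at P3 (all tested genes 31.4% and 37.3%) and 3 rose and 9 fell at P7 against P3 (30.3% and 28.0%). At P15 against P7, where STAT3 itself had fallen, 13 rose and 5 fell (46.3% and 40.1%). The median of the list was 0.16, -0.18 and 0.77 at these steps, against -0.03, 0.01 and 0.06 over all tested genes. JUNB, an AP-1 subunit, rose by 0.80 at P3 (adjusted p = 5.6e-10), and CEBPD, a C/EBP factor, fell by 0.74 (adjusted p = 6.13e-07). At P15 against P7 the coactivator BCL3 rose by 2.50 (adjusted p = 3.21e-20) and NNMT, an enzyme of nicotinamide metabolism, fell by 2.21 (adjusted p = 1.12e-19). The kinase PIM1 was 2.20 above P0 (adjusted p = 3.65e-20). Of 15 acute-phase genes, products that the liver makes under IL6, 14 had a row and 4 passed the filter. None of the 4 rose and 3 fell at P3 (all tested genes 31.4% and 37.3%), 2 rose and none fell at P7 against P3 (30.3% and 28.0%), and 2 rose and 2 fell at P15 against P7, near the shares of all tested genes (46.3% and 40.1%). C3, a complement factor, fell by 2.28 at P3 (adjusted p = 3.24e-25) and rose by 0.98 at P7 against P3 (adjusted p = 7.6e-18). SAA1, which may share reads with its near-identical copy SAA2, fell by 4.94 at P15 against P7 (adjusted p = 1.16e-27). LCN2 rose by 2.81 (adjusted p = 3.4e-17), and passed the filter through its P15 level alone.

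Regulators of IL6 transcription were 10 genes, 2 of them also in the target list. At P3 6 rose and 2 fell (all tested genes 31.4% and 37.3%), at P7 against P3 none rose and 6 fell (30.3% and 28.0%), and at P15 against P7 7 rose and 3 fell (46.3% and 40.1%). ATF3, a stress-induced factor of the AP-1 and CRE kind, rose by 1.68 at P3 (adjusted p = 5.39e-13) and by 2.88 at P15 against P7 (adjusted p = 1.67e-18). The NF-kappaB gene NFKB2 fell by 0.55 at P7 against P3 (adjusted p = 2.01e-11), and the AP-1 gene FOSL1 fell by 0.90 at P15 against P7 (adjusted p = 1.17e-15). Of 9 regulators of IL6 mRNA decay, 3 rose and 3 fell at P3, near the shares of all tested genes (31.4% and 37.3%), 1 rose and 6 fell at P7 against P3 (30.3% and 28.0%), and 2 rose and 4 fell at P15 against P7 (46.3% and 40.1%). ZFP36, which binds AU-rich elements and speeds decay, rose by 3.00 at P15 against P7 (adjusted p = 2.9e-21), and ZC3H12C fell by 2.48 (adjusted p = 3.53e-21). At P3 ZC3H12C rose by 0.68 (adjusted p = 1.7e-09) and ZFP36L1 fell by 0.55 (adjusted p = 3.24e-12).

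Over the whole course, P15 against P0, the Janus kinases and STATs had 3 genes higher and 3 lower, the other inhibitors 7 and 7, the adaptors none and 6, the shedding genes 2 and 3, the STAT3 targets 12 and 6 and the acute-phase genes 1 and 3. ATF3 was 4.08 above P0 (adjusted p = 1.58e-21) among the regulators of IL6 transcription, of which 6 were higher and 3 lower. ZFP36 was 2.97 above P0 (adjusted p = 3.87e-21) among the regulators of IL6 mRNA decay, of which 2 were higher and 7 lower. GAB2, the adaptor with the largest fall, had a log2 fold change of -1.60 (adjusted p = 3.97e-19). These list counts stand beside the 45.3% of all tested genes that were higher and the 40.9% that were lower, and no list was tested as a set.

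**Figure D4:**
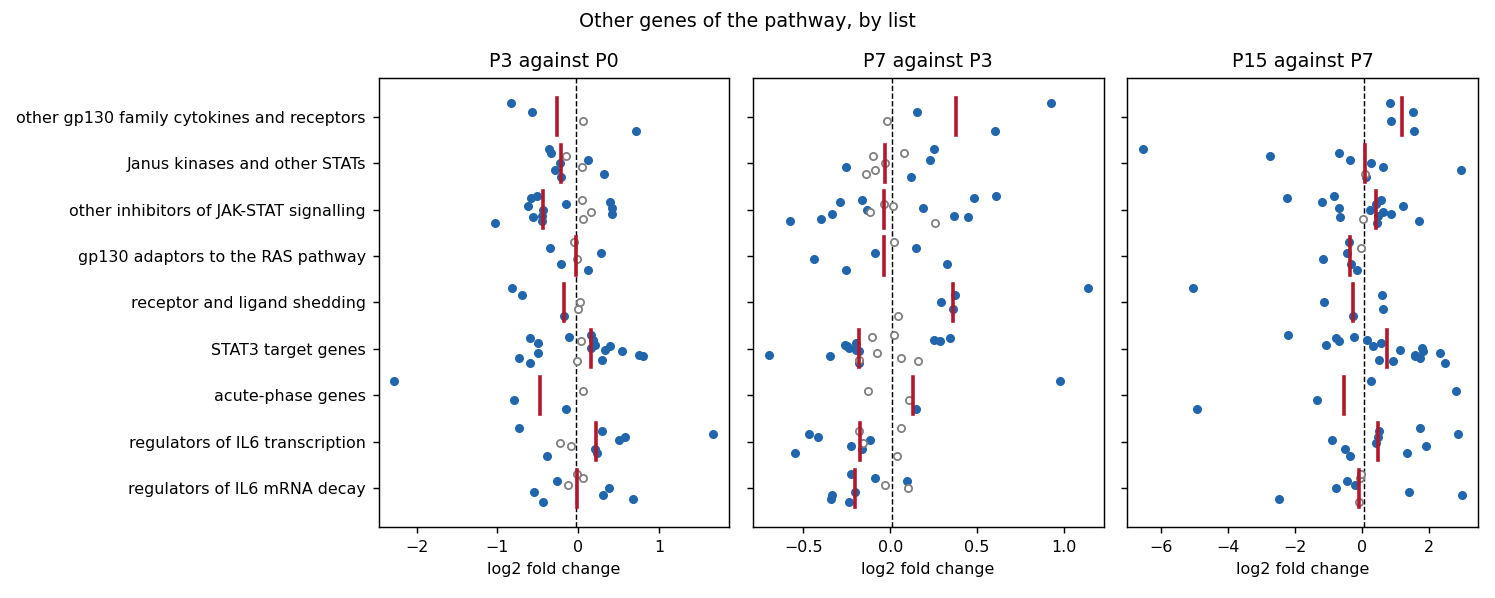
Log2 fold changes of the tested genes of each pathway list at the 3 successive steps, each panel with its own horizontal range. Filled points have an adjusted p below 0.05, red bars are list medians and the dashed line is the median of all tested genes. At P15 against P7, STAT3 target genes had a median of 0.77 and the adaptors lay at or below 0, and the outermost points on the left were STAT6 (-6.55), TIMP3 (-5.06) and SAA1 (-4.94).

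The genes whose levels followed those above most closely over the 16 libraries were listed by Pearson correlation. These libraries form 4 phases, so a correlation over them mainly states the order of 4 levels and is a description. For IL6 they were PFDN1 (0.981), SMURF2 (0.978), CTPS1 (0.974), CORO1C (0.974) and RP4-621F18.2 (0.973). For IL11 they were TNFAIP3 (0.991), which encodes the NF-kappaB inhibitor A20, FRMD6 (0.991) and ADAMTS1 (0.990). For LIF they were MICA, PPARD and DMTF1 (0.996 to 0.997), for CLCF1 the tissue factor gene F3, PDLIM5 and TPM3 (0.993 to 0.996), and for IL6R BTBD10, ST3GAL1 and CDCA5 (0.979 to 0.986). DKK1, an inhibitor of Wnt signalling, followed IL6ST with 0.998, at log2 levels of 6.74 in P0, 8.05 in P3, 7.14 in P7, then 3.32 in P15, and PSME3 and PPP2R1B followed it with 0.998 and 0.997. LIFR was followed by LUZP1, LMBRD2 and PGM2 (0.972 to 0.976), OSMR by CPD, ANTXR2 and the interleukin-1 receptor gene IL1RAP (0.973 to 0.978), STAT3 by JADE2, ARMC7 and BICC1 (0.993 to 0.994) and SOCS3 by NR2C2AP, CTA-29F11.1 and NEDD4 (0.946 to 0.949). Among the genes themselves, IL6 and IL11 correlated with 0.948, CLCF1 and IL6ST with 0.98, and LIF and STAT3 with -0.987.

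Exons of several of these genes overlap other genes in GENCODE 44, and the strand setting of the counting was not given. IL6-AS1 and STEAP1B overlap IL6 on the opposite strand, over 9.91% and 1.06% of its exon bases, and STEAP1B was at 0.138 CPM in P0, 0.408 in P3 and 4.53 in P15. RICTOR, at 53.2 to 70.4 CPM, overlaps OSMR over 3.19%, and LIFR-AS1, at 0.153 to 0.269 CPM, overlaps LIFR over 5.17%. Transcripts of IL6ST, LIF and CLCF1 share 2.14 to 6.61% of their exon bases with other genes. Those of IL11RA and CNTF, the largest, are given with their levels.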

How the data were processed

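RNA sequencing values of 16 libraries were used, 4 each of phases P0, P3, P7 and P15, grouped by the phase in the labels. The authors aligned paired-end reads with STAR 2.6.1a to GRCh38, counted them on genes with featureCounts and turned the counts into CPM. The deposited table holds 39007 symbols, each as log2 of its CPM plus 1 with 2 decimals, and its values carry neither the quantile normalization nor the median centring that the methods also describe. Annotation release, strand setting and handling of reads that match several genes were not given in the sources used here.

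The deposited log2 values were fitted with limma 3.58.1 (R 4.3.3), with phase as the only factor in 1 model of all 16 libraries, a mean-variance trend, and Benjamini-Hochberg adjustment over the 13249 genes whose mean exceeded 1 CPM. A gene was called at an adjusted p below 0.05. Within-library differences were tested with exact permutation tests in Python 3.11.15 with scipy 1.17.1, and figures were drawn with matplotlib 3.10.9. The fit was tested on simulated data with independent libraries, which cannot show how it behaves when libraries share a selection history. Coordinates and lengths are those of GENCODE 44, and promoters those of RefSeq.

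The 10 genes, the lists and the tests were chosen with earlier results of these data known. Named are all 10, the other gp130 cytokines and receptors (1 is not reported here), for each other list the largest rise and fall in a comparison, and the genes with the highest correlation (5 for IL6, 3 for each other). Replicate numbers of the descriptions differ from those of the titles for 14 of 16 libraries. Deviations of same-numbered libraries of different phases correlated between -0.147 and 0.218, with 1 of 24 pairs over 0.1. The main fit therefore did not treat the libraries as paired, but weak correlations cannot exclude a pairing. Alternatives were pseudocounts of 0.1 and 5 CPM, no filter, at least 1 CPM in all libraries, quantile normalization, a median shift, no variance trend, phases compared alone, a 2-fold call rule, a replicate block and each library left out in turn.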

Additional observations from a re-analysis of the deposited data

Results flagged for a closer look

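In each phase, a library was singled out when its gap to the nearest of the others, as a ratio to the range of the 4, exceeded Dixon's critical value. Of 40 groups of 4 libraries, 3 held such a library, where about 2 are expected by chance (1 in 20). IL6R in P15 replicate 3 was lower than in the other 3 libraries (2.32 against 2.65 to 2.71, ratio 0.846), and this library also has the lowest estimated count of the gene, 144. STAT3 in P3 replicate 1 was lower (7.52 against 7.58 to 7.59, ratio 0.857). OSMR in P3 replicate 2 was higher (7.62 against 7.61, ratio 1.0), a difference of 1 step of the rounded values.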

How the results depend on the processing

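Of 1560 alternative values of the 60 log2 fold changes, none reversed, 1542 kept their side of the threshold, 9 lost a call and 9 gained one. All 18 concerned IL6, IL11, IL6R, IL6ST, STAT3 and SOCS3 in the comparisons P15 against P7, P7 against P0 or P3 against P0, and their values stand beside those results. A changed filter, variance trend or block, phases compared alone, or leaving out a library of a phase outside the comparison cannot alter a log2 fold change. Such settings could therefore not reverse one and bear only on its call. With a 2-fold call rule, the counts became 2 higher at P3 against P0, 2 lower at P7 against P3, 1 higher and 2 lower at P15 against P7 and against P0, 0 higher and 0 lower at P7 against P0, and 1 higher at P15 against P3. Quantile normalization gave 1 gene lower at P3 against P0. For P7 against P0, the count of 1 lower gene became 0 without the filter and under quantile normalization. With the replicate block, under either numbering, 2 genes were lower at P7 against P0 and 9 higher at P3 against P0, and no other count moved. Leaving out each library in turn gave 0 to 2 lower genes at P7 against P0.

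For the within-library differences, 7 libraries allow no p below 0.0571, so leaving one out ended every call by design. The IL6 minus IL11 changes then ran from 0.32 to 0.40 at P3 against P0, from 0.47 to 0.62 at P15 against P7 and from 0.70 to 0.81 at P15 against P0. Those of LIFR minus OSMR ran from 0.48 to 0.56 at P3 against P0, from -0.55 to -0.45 at P7 against P3, from -0.73 to -0.63 at P15 against P7 and from -0.70 to -0.62 at P15 against P0. With a pseudocount of 5 CPM, IL6 minus IL11 at P15 against P7 changed by 0.39 (exact p = 0.0571), and the cause was not tested. The length of all annotated exons, tried after seeing the data, changed the leading ligand at P3. Values below 1 count, at most 0.0295 CPM, could not be told from 0.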
